A study of Mus musculus with 8 samples.

Results

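Macro_1 was one of the 21 clusters into which the deposited annotation divides leukocytes of the mouse brain and its borders. Its members were the barcodes that the annotation assigned to this cluster, and there were 195 of them among 32457 annotated cells in 8 single-cell RNA-seq libraries. The libraries were made from adult male C57BL/6 mice, either control animals, which the study's text calls naive in one place and sham-operated in another, or animals after transient middle cerebral artery occlusion (MCAO), a model of ischaemic stroke in which a filament blocks the artery and is then withdrawn. CD45+ cells were sorted from brain parenchyma, pia and dura after an intravenous anti-CD45 antibody had marked cells inside the vessels, which the gate left out. There was 1 library each of control brain, control pia, control dura, pia 24 h and dura 24 h after MCAO and brain 72 h after MCAO, and there were 2 libraries of brain 24 h after MCAO. For control pia the labels disagree, since its title speaks of brain and the others of pia, and pia was used here. The study states a total per compartment after pooling of repeated experiments, and how many mice went into each library is not given in the sources used here.

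The brain 72 h library held 73 Macro_1 cells, the most of any library. Control brain held 13, the brain 24 h libraries 16 and 9, control pia 18, pia 24 h 28, control dura 22 and dura 24 h 16. Libraries held between 6591898 and 20754181 unique molecular identifiers (UMIs, each a captured transcript molecule), and the summed Macro_1 cells between 21707 UMIs in control brain and 171550 in brain 72 h. Levels are in CPM, the UMIs of a gene per 1000000 UMIs of the same cells, summed over the cells of a cluster in 1 library. Intervals are exact 95% intervals for counting error only. Brain 24 h replicate 2 and brain 72 h were counted against a gene list of 31053 entries and the others against one of 32285, and the kit version also differed between libraries, so levels were compared first within a library. The cluster assignments had been made from the same genes and cells, so differences between clusters are given as descriptions without a test. At most 43 barcodes were shared by a pair of libraries, and 3 of the 195 Macro_1 barcodes also occurred in another library.

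The genes proposed as marks of the cluster did not hold in all libraries. Fabp5, a fatty acid binding protein, stood at 1568 CPM in Macro_1 of brain 72 h, at 267 in brain 24 h replicate 2 and at 21 in pia 24 h, and had no UMI in Macro_1 of the other 5 libraries. Gpnmb, a lysosomal glycoprotein of lipid-laden macrophages, reached 385 CPM in brain 72 h and had no UMI in Macro_1 elsewhere. Fn1, fibronectin, stood at 804 CPM in brain 72 h, 921 in brain 24 h replicate 2 and 92.1 in control brain, and was not detected in Macro_1 of the remaining 5. Within brain 72 h, Fabp5 and Gpnmb were higher in SAMC, the stroke-associated myeloid cells, at 7644 and 2703 CPM. Control dura Macro_1, with no UMI of any of the 3 genes in 59187 UMIs, set the tightest limit outside the brain, since a count of 0 allows a level of up to 50.7 CPM. The general macrophage genes were present in every library, as all 6 of Lyz2, Apoe, Csf1r, Cd68, Adgre1 and C1qa had UMIs in Macro_1 of each. Their summed level ran from 9558 CPM in brain 24 h replicate 1 to 66233 in dura 24 h. Macro_1 of control brain and brain 24 h replicate 1 also carried the microglia genes described further below, and the cluster is called here by its name in the annotation.

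What Macro_1 cells shared in all libraries was a set of interferon-stimulated genes. Type I interferons bind a receptor made of Ifnar1 and Ifnar2, whose kinases activate transcription factors that join Irf9 and switch on genes that carry an interferon-stimulated response element (ISRE). The products restrict viruses and sense foreign or misplaced nucleic acid, and some, such as Irf7, raise the response further while others, such as Usp18 and Socs1, limit it. Brain macrophages and microglia in such a state are known from infection, ageing, demyelination and injury.

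The promoters of several of these genes show the element in letters. The sequence GAAANNGAAA, in which N is any base, was sought on both strands of the 250 bases upstream of each start site in the RefSeq promoter table for GRCm38.p6, the assembly also called mm10. It was the only motif sought, and matches were allowed to overlap each other. Of the 27025 genes in the table, 936 (3.46%) held at least 1 match. Of 42 genes on a list of interferon effectors, 33 had an entry and 13 (39.4%) held a match. The share was 11 of 15 (73.3%) among p200 and Schlafen genes, 8 of 9 (88.9%) among interferon-induced GTPases and 3 of 12 (25%) among MHC class I pathway genes. It was 1 of 8 (12.5%) among interferon regulators and again among nucleic acid sensors, and 1 of 10 (10%) among chemokines. The share was 1 of 15 (6.67%) among lipid-handling and SAMC genes and 0 among the 4 MHC class II, 10 monocyte, 9 border macrophage and 7 microglia genes with an entry. Of the 126 genes in no interferon or MHC class I list that were at least 2-fold higher than in all 3 clusters compared with Macro_1 in brain 72 h, 109 had an entry and 11 (10.1%) a match. For 6 of the interferon-stimulated genes described below that held a match, the 100 bases upstream of the start that hold it are given 5′ to 3′ on the strand of the gene, with the matches in capitals. They were chosen after their values were seen.
Ifit1, chr19:34640759-34640858, plus strand: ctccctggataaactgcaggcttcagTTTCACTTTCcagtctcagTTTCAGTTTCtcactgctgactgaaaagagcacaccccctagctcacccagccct
Ifit3, chr19:34583362-34583461, plus strand: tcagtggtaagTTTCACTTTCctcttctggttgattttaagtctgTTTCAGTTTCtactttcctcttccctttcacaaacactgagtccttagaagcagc
Isg15, chr4:156200830-156200929, minus strand: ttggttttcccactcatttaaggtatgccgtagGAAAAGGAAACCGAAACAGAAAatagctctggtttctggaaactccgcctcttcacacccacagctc
Rsad2, chr12:26456518-26456617, minus strand: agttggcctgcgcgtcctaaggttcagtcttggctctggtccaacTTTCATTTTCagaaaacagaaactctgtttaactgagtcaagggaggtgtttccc
Cxcl10, chr5:92349040-92349139, minus strand: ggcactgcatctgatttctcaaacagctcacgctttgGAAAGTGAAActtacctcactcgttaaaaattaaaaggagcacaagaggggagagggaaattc
Ifi205, chr1:174031835-174031934, minus strand: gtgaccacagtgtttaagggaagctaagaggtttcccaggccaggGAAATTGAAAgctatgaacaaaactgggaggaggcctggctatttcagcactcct
Isg15 had 3 overlapping matches, and Ifit1 and Ifit3 each had 2 on the opposite strand. These letters were not found in the window of Ifit2, Irf7, Ifitm3, Ccl12 or Fcgr1. A match describes the sequence and says nothing about occupancy in these cells.

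Of the 42 effectors, genes whose products carry out the antiviral response, 40 were named in the gene lists of all libraries, and these were summed. They gave 2.68% of Macro_1 UMIs in brain 72 h (interval 2.61 to 2.76). In the other brain libraries the share was 2.16% in control brain, 2.13% in brain 24 h replicate 1 and 1.92% in replicate 2. It was 2.56% in control pia, 3.12% in pia 24 h, 3.74% in control dura and 3.31% in dura 24 h. Macro_1 ranked first in every library, among between 12 and 21 clusters. The next cluster was at 0.56% in control brain (Macro_2), 1.5% in brain 24 h replicate 1, 1.22% in replicate 2, 2% in brain 72 h and 1.55% in pia 24 h (all mDC1, a dendritic cell cluster), and 0.945%, 1.46% and 0.887% in control pia, control dura and dura 24 h (all Granulo_1). The nearest approach, mDC1 in brain 72 h, had another composition. There Ifitm1, a membrane protein that hinders viral entry, made up 42.9% of the mDC1 effector UMIs, at 8585 CPM against 233 in Macro_1. Ifit3, an RNA-binding antiviral protein, stood at 15.2 CPM in mDC1 and 1172 in Macro_1, and Rsad2, viperin, at 8 and 1224. No single gene carried the Macro_1 sum, since Ifitm3 supplied 15.3% of it over all libraries and without Ifitm3 Macro_1 still ranked first in each.

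**Figure D1:**
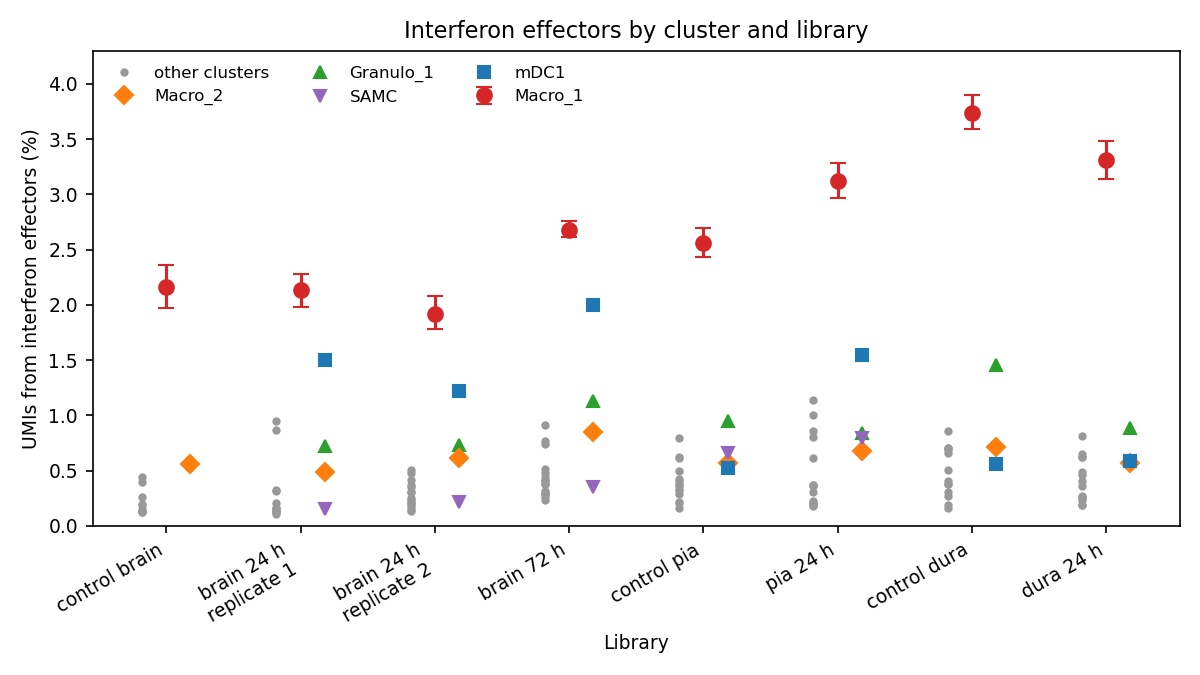
Percent of UMIs from 40 interferon effectors (vertical axis) in each cluster with at least 10 cells, by library (horizontal axis), with Macro_1 shown throughout. Red circles are Macro_1 with exact 95% intervals for counting error, and the other symbols are single clusters. Macro_1 lies between 1.92% and 3.74%, above every other cluster of its library.

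The signal was spread over the cells of the cluster. When each brain 72 h cell was thinned to 1000 UMIs, which left 71 of 73 Macro_1 cells, a Macro_1 cell showed UMIs of a median of 13 effectors, and the cells ranged from 5 to 26. The median was 5 in mDC1 and Granulo_1, 4 in Macro_2 and CAM_1 and 3 in SAMC. The distributions overlapped, as single cells of Granulo_1 and Macro_2 showed up to 19 and 17 effectors. In the other libraries the Macro_1 medians ran from 9.5 in brain 24 h replicate 2 to 18 in control dura, where the lowest cell showed 11.
After the same thinning, Ifit3 had a UMI in 59.2% of brain 72 h Macro_1 cells (46.8 to 70.7), against 0.842% in SAMC, 2.7% in Macro_2, 2.27% in Granulo_1 and 1.87% in lymphoid cells. Isg15, a ubiquitin-like protein, had one in 67.6%, against 4.84%, 5.95%, 8.28% and 6.32%. Ifitm3 was less selective, at 94.4% of Macro_1, 41.3% of SAMC, 77.1% of Macro_2 and 89.6% of Granulo_1 cells. Without thinning, Ifit3 had a UMI in 79.5% of the 73 Macro_1 cells. The median depth of these cells before thinning was 2118 UMIs in Macro_1, 4672 in SAMC, 3136 in Macro_2, 2737 in Granulo_1 and 1477 in lymphoid cells, so the class with the highest share was not the deepest. No cell type here should lack these genes altogether, so the lymphoid shares are only a comparison.

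**Figure D2:**
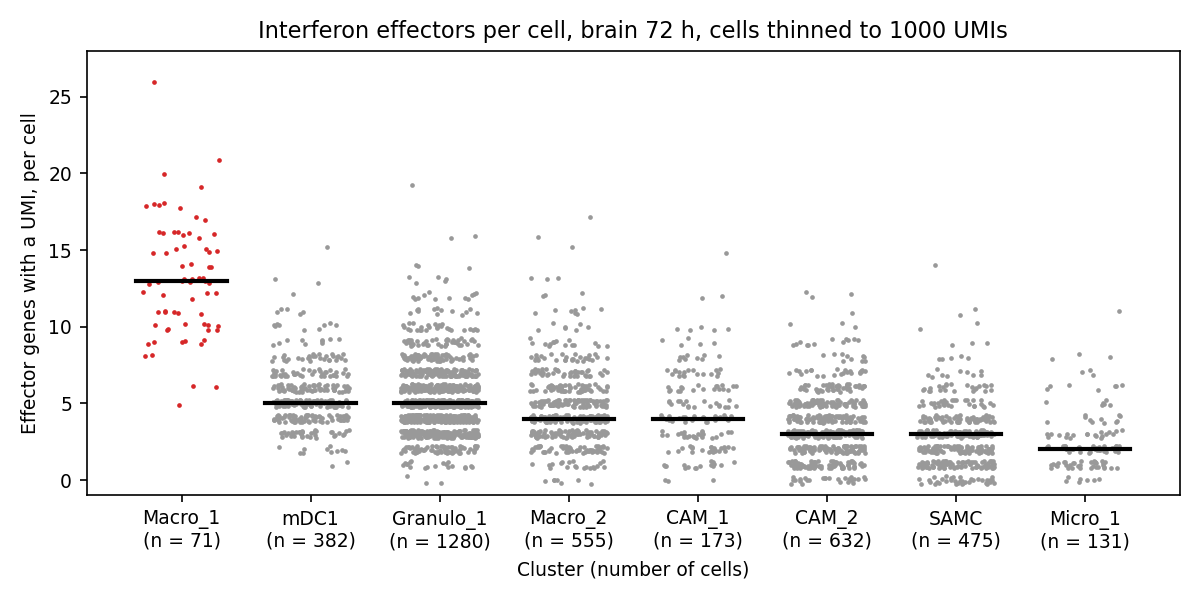
Number of the 40 interferon effectors with at least 1 UMI in each brain 72 h cell after thinning to 1000 UMIs (vertical axis), by cluster with its number of cells (horizontal axis). Points are cells, moved slightly sideways and up or down for display, and black bars are medians. The Macro_1 median is 13 and the medians of the other clusters lie between 2 and 5.

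In brain 72 h, Macro_1 was compared with SAMC (485 cells), Macro_2 (570 cells) and Granulo_1 (1315 cells) over genes with a mean level of at least 50 CPM in the 2 clusters. The log2 ratios had 0.5 counts added to each sum, and a gene counted as apart at 2-fold or more on that scale. Ratios written as a fold with an interval are those of the CPM, with no added count. Against SAMC, 470 of 2899 genes (16.2%) were at least 2-fold higher in Macro_1 and 140 (4.83%) lower. Against Macro_2, 493 of 2862 (17.2%) were higher and 149 (5.21%) lower. Against Granulo_1, 322 of 2981 (10.8%) were higher and 127 (4.26%) lower. The median log2 ratio of all genes was 0.10, 0.21 and 0.02. Scaling by edgeR's trimmed mean lowered all ratios by 0.19, 0.24 and 0.13 on the log2 scale, and the splits then became 360 higher and 241 lower, 376 and 280, and 270 and 183.

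The effectors stood far above this background. Of 38 over the minimum against SAMC, 37 were at least 2-fold higher in Macro_1 and none lower, with a median log2 ratio of 3.55. Against Macro_2, 36 of 38 were higher and Ifitm1 was lower (233 against 897 CPM), with a median of 2.64. Against Granulo_1, 35 of 39 were higher and Ifitm2 was lower (734 against 1848 CPM), with a median of 2.53. A gene could pass the minimum through Macro_1 alone, so the counts over members that passed describe and do not support. Those highest in Macro_1 are led by Ifitm3 (4593 CPM in Macro_1, 543 in SAMC, 2161 in Macro_2 and 3714 in Granulo_1) and Ifi27l2a (3608 against 470, 801 and 1422). Ly6e stood at 3381 CPM against 661, 1249 and 1611. Contrasts were larger for genes that the other clusters hardly carried. Isg15 stood at 1317 CPM against 35.1 in SAMC, 71.8 in Macro_2 and 96.4 in Granulo_1. Rsad2 stood at 1224 CPM against 12.6, 20.9 and 34.7. Ifit3 stood at 1172 CPM against 5.2, 32.1 and 26.1, so that its ratio to SAMC was 225-fold (126 to 443). Ifit2 stood at 536 CPM against 3.47, 21.4 and 12.2, and Ifit1 at 560 against 6.93, 25.2 and 11.9. Ifit3b had 36 UMIs in Macro_1 and 3, 5 and 7 in the other clusters, a ratio to SAMC of 161-fold (51 to 819). Mx1, a GTPase that traps viral nucleocapsids, stood at 630 CPM against 11.3, 23.6 and 27.8.

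The parts of the pathway upstream of the effectors differed less evenly. Interferon genes themselves were almost undetected, as Macro_1 showed UMIs of 1 of 5 ligand genes in each of brain 72 h, control pia and pia 24 h and of none elsewhere, and no ligand reached the minimum. Among 9 receptor and signalling genes over the minimum, 5, 4 and 3 were at least 2-fold higher than in SAMC, Macro_2 and Granulo_1, and 4, 2 and 2 with the trimmed mean scaling. Ifnar1, a chain of the type I receptor, stood at 187 CPM against 86.7, 93.8 and 118, and Ifngr1, a chain of the interferon gamma receptor, was below Macro_2 and Granulo_1 (117 against 320 and 312). Of 8 regulators, 7, 5 and 6 were higher and none lower. Irf7, the transcription factor that amplifies the response, stood at 991 CPM against 37.7, 63.8 and 111, and Usp18, the protease that removes Isg15 and damps the receptor, at 297 against 9.54, 20.9 and 20.
Of the nucleic acid sensors, 9 of 9, 7 of 8 and 8 of 9 were higher. They included Zbp1, a sensor of Z-form nucleic acid (536 CPM against 42.9, 41.3 and 110), and Ddx58, the RNA sensor RIG-I (291 against 9.97, 35.4 and 32.2). Of 12 interferon-induced GTPases, 3, 4 and 5 reached the minimum. All of these were higher, but a gene could reach it through Macro_1 alone, so the counts only describe. They included Ifi47 (402 CPM against 10.8, 22.5 and 34.2) and Gbp2 (34 UMIs in Macro_1 and 3 in SAMC, 152-fold, 47.9 to 776). Over all 12 members the sum was 1224 CPM in Macro_1, 45 in SAMC and 88 in Macro_2.

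All 16 p200 and Schlafen genes were at least 2-fold higher than in each of the 3 clusters, with median log2 ratios of 4.88, 3.11 and 2.71. The p200 proteins bind DNA, and the Schlafen proteins act on growth and on viral translation. Slfn5 stood at 1137 CPM against 123, 222 and 305, and Ifi204 at 915 against 99.3, 83 and 232. Ifi205 had 21 UMIs in Macro_1 and none in SAMC, at least 94.1-fold higher against the level that 3 counts would give over SAMC, while the exact interval of the ratio, which also covers the counting error of the 21 UMIs, starts at 70-fold. Ifi208 had 22 UMIs in Macro_1 and 1 in SAMC, 296-fold with a wide interval of 47.8 to 12211. Slfn4 stood at 746 CPM against 8.57 in Macro_2. Genes of these families lie side by side and resemble one another, so reads may be divided between copies with some uncertainty, and Mndal, Ifi203 and Ifi211 overlap in the annotation. The same holds for Ifit3 and Ifit3b.

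Over the 3 comparisons together, 196 of 2643 genes (7.42%) were at least 2-fold higher in Macro_1 in all of them and 11 (0.416%) lower in all. Of the 196, 70 stood on one of the interferon or MHC class I lists and 108 on no list used here. Neighbouring genes, no more than 200000 bases apart, formed 9 runs of 3 or more, with 40 of the 196 genes. The longest run held 10 p200 genes on chromosome 1, from Ifi206 at 173468485 to Ifi205 at 174031810 (GENCODE M21, GRCm38). There were 6 Schlafen genes on chromosome 11 between 82951349 (Slfn5) and 83190216 (Slfn4), and Ifit2, Ifit3, Ifit1bl1, Ifit3b and Ifit1 on chromosome 19 between 34550694 and 34650009. A run of chemokine genes, Ccl5, Ccl3 and Ccl4, lay further along chromosome 11.
Among genes on no list, Pnp, a purine-salvage enzyme, stood at 939 CPM and was higher by log2 ratios of 2.32, 2.52 and 1.81. AW112010 stood at 338 CPM with ratios of 4.32, 2.75 and 3.76. Both were singled out after their values were seen. Il4i1, an enzyme that degrades aromatic amino acids, stood at 117 CPM against 2.17, 6.43 and 1.11, and Ifit1bl1 had 21 UMIs against 1 in SAMC, 282-fold (45.4 to 11680). The 11 genes lower in all 3 included Polr2e, a shared RNA polymerase subunit (17.5 CPM, log2 ratios of -2.39, -2.82 and -2.18), Srsf6, Lsm6 and Snrpd3, which take part in splicing, and Ndufa10 and Ndufb5 of respiratory complex I.

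**Figure D3:**
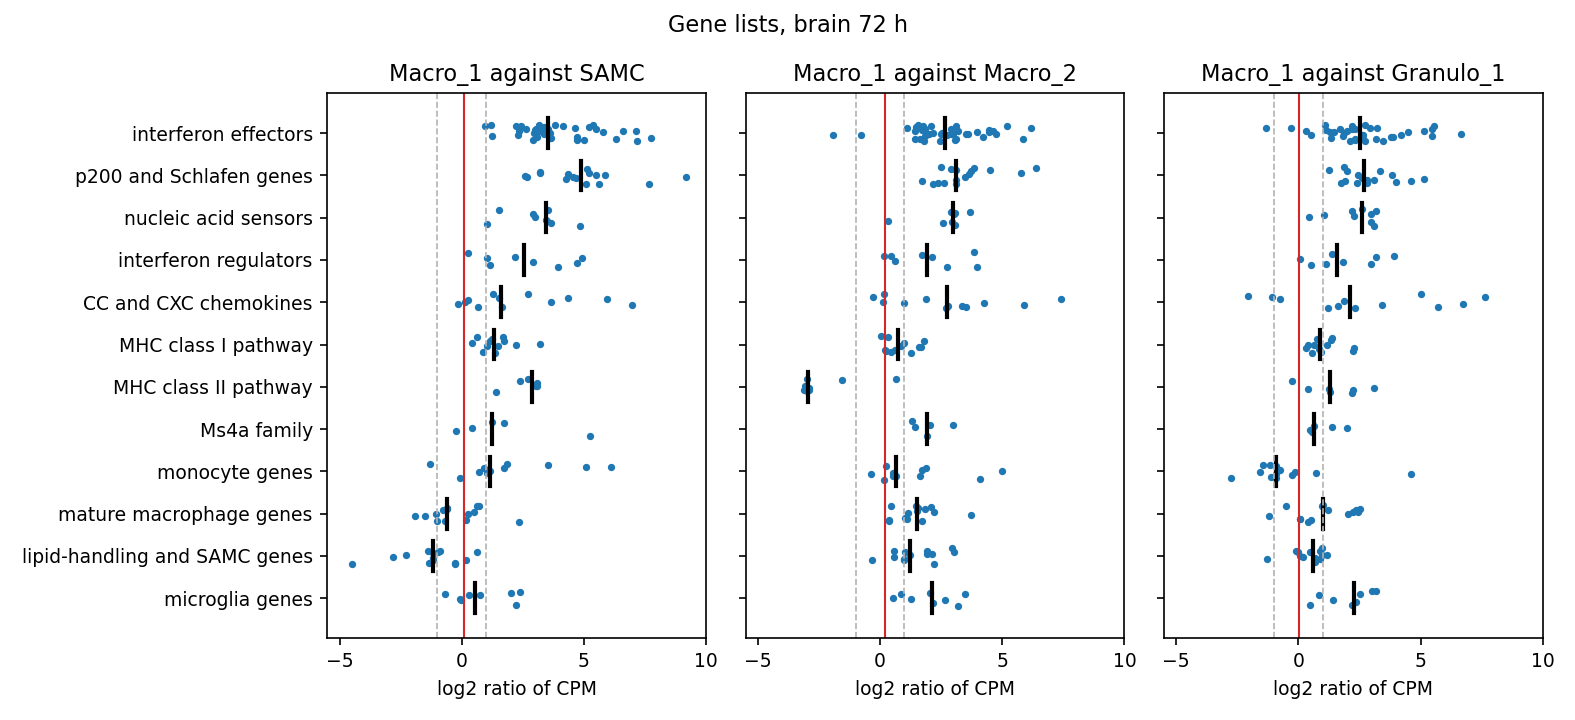
log2 ratio of CPM, Macro_1 over SAMC, Macro_2 or Granulo_1 in brain 72 h (horizontal axis), for the members over 50 CPM of 12 gene lists (vertical axis). Points are genes, black bars list medians, red lines the median of all genes (0.10, 0.21 and 0.02) and dashed lines 2-fold. The MHC class II genes lie to the right against SAMC and Granulo_1 and to the left against Macro_2.

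Chemokine genes followed the effectors in part. Of 12 CC and CXC chemokine genes over the minimum, 8 were higher than in SAMC, 8 higher than in Macro_2, and 9 higher and 2 lower than in Granulo_1. Cxcl10, which draws Cxcr3-bearing lymphocytes, stood at 1096 CPM in Macro_1, 53.7 in SAMC, 18.2 in Macro_2 and 10.3 in Granulo_1. Cxcl9, a ligand of the same receptor, was lower in amount, with 23 UMIs in Macro_1 (134 CPM) and 2, 1 and 2 UMIs in the other clusters, and its ratio to SAMC was 155-fold (38.2 to 1353). Ccl12, which acts on the monocyte receptor Ccr2, stood at 536 CPM against 42, 27.9 and 16.4. Ccl5 stood at 595 CPM against 9.54, 51.4 and 11.4, but 75 of its 102 Macro_1 UMIs came from 1 cell and only 6 of 73 cells held it. The 2 genes lower than in Granulo_1 were Ccl6 (187 against 785 CPM) and Ccl9 (245 against 522). Of the 4 inflammatory cytokine genes over the minimum, Tnf (309 CPM against 59.4, 30.5 and 30.3) and Il1rn, the interleukin-1 receptor antagonist (128 against 11.7, 10.7 and 49.4), were higher in all 3, whereas Il1b was above SAMC and below Macro_2 (204 CPM against 19.5 and 446).

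Fcgr1, the high-affinity receptor for IgG, stood at 857 CPM in Macro_1 against 243, 129 and 287, and Fcgr4 at 280 against 125, 72.3 and 121, at least 2-fold higher in all 3 but below 2-fold against SAMC with the trimmed mean scaling. Of 5 Ms4a genes, 3, 5 and 2 were higher, led by Ms4a4c (1236 CPM against 32.1, 158 and 309). Of 12 MHC class I pathway genes, 9, 4 and 5 were higher and none lower, with Tap1, the peptide transporter, at 297 CPM against 32.5, 87.3 and 61.4. B2m, at 2367 CPM against 1284, 1218 and 1263, was below 2-fold in all 3.
MHC class II genes, which present peptides to CD4+ T cells, divided the comparisons. All 6 were higher than in SAMC (median log2 ratio 2.88), 5 of 7 higher than in Granulo_1 (1.31) and 7 of 8 lower than in Macro_2 (-2.94). H2-Aa stood at 1143 CPM in Macro_1, 138 in SAMC, 240 in Granulo_1 and 9051 in Macro_2. Cd74, the invariant chain, stood at 2413 CPM against 468, 976 and 18020. Ciita, the activator of these genes, was also low against Macro_2 (23.3 and 194 CPM).

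Genes of lipid handling, monocytes, macrophages and microglia differed by comparison. Against SAMC, 8 of 14 lipid-handling and SAMC genes were lower and none higher. Spp1, osteopontin, showed the lowest log2 ratio of all genes over the minimum, at -4.50 with 0.5 counts added. It stood at 729 CPM in Macro_1 and 16554 in SAMC. Without the added count Slc48a1, with 1 UMI in Macro_1, was slightly lower (a ratio of 0.0423 against 0.044 for Spp1). Against Macro_2, 8 of 13 of the same list were higher, with Spp1 at 159 CPM, Gpnmb at 47.1 and Fabp5 at 206 in Macro_2. Against Granulo_1, 1 of 14 was higher and 1 lower, and Spp1 stood at 646 CPM there.
Among monocyte genes, Ly6c2, the surface protein of inflammatory monocytes, stood at 1032 CPM in Macro_1, 90.2 in SAMC, 60.5 in Macro_2 and 633 in Granulo_1. Plac8 stood at 1306 CPM against 18.6, 426 and 1584, and Chil3 at 915 against 558, 28.4 and 2475. In counts, 7 of 11 monocyte genes were higher and 1 lower than in SAMC, 5 of 11 higher than in Macro_2, and 1 of 13 higher and 5 lower than in Granulo_1, the lowest being Vcan (23.3 against 178 CPM). Of 14 mature macrophage genes, 1 was higher and 4 lower than in SAMC, 11 higher than in Macro_2, and 7 higher and 1 lower than in Granulo_1. Apoe, the lipid carrier, stood at 25509 CPM in Macro_1, 51943 in SAMC, 7105 in Macro_2 and 12920 in Granulo_1, and C1qa, of the complement cascade, at 1807 against 3079, 649 and 390.
None of the microglia genes was at least 2-fold lower in any comparison, and the lowest log2 ratio among them was -0.68, against SAMC. Of 8, 3 were at least 2-fold higher than in SAMC, 6 than in Macro_2 and 6 than in Granulo_1, with median log2 ratios of 0.53, 2.11 and 2.28. Sparc, a matrix protein that microglia express, stood at 373 CPM in Macro_1 against 92.8 in SAMC, 33.2 in Macro_2 and 41.1 in Granulo_1, P2ry12, the purinergic receptor of resting microglia, at 134 against 26, 30 and 26.7, and Siglech at 93.3 against 20.4, 23 and 20.8. Their part in the differences from the 3 clusters was not tested.
At the low end against Macro_2 stood Cbfa2t3 (17.5 against 274 CPM), Il1r2 (5.83 against 115) and 6 MHC class II pathway genes, H2-Eb1, H2-DMb1, H2-Ab1, H2-Aa, Cd74 and Ciita. Against SAMC, Slc48a1, a haem transporter, and Gas6 each had 1 UMI in Macro_1 and 318 and 231 in SAMC, Pf4 stood at 35 against 378 CPM, and Gclm, of glutathione synthesis, at 35 against 173. Against Granulo_1, the lowest beside Vcan and Polr2e were Ifitm6 (23.3 against 357 CPM), Gda (58.3 against 406), Stk10 (11.7 against 93, with 2 UMIs in Macro_1), Slpi (46.6 against 302), Gsr, glutathione reductase (75.8 against 447), and Mcub (23.3 against 117).

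Lists for lymphoid, dendritic and non-leukocyte cells were near empty in brain 72 h Macro_1. Lymphoid genes had UMIs in 1 of 11 members, dendritic cell genes in 2 of 8, plasmacytoid dendritic cell genes in 1 of 6 (Siglech, which microglia also carry) and cell cycle genes in 3 of 8. Non-leukocyte genes had UMIs in 5 of 9, at 76 CPM in sum. Neutrophil genes had UMIs in 5 of 10 members, at 198 CPM in sum. Csf3r, the receptor of granulocyte colony-stimulating factor, was the most abundant of them at 128 CPM against 61.1 in SAMC, 35.9 in Macro_2 and 87.5 in Granulo_1, at least 2-fold higher than the first 2 but below 2-fold against SAMC with the trimmed mean scaling. Cxcr2 and Ly6g had no UMI in Macro_1 of any library, and the sum of the list ran up to 912 CPM in control dura, led by S100a8. Of 9 dissociation and heat shock genes over the minimum, 3, 0 and 2 were higher and none lower, and their summed level in Macro_1 ran from 9193 CPM in brain 72 h to 27595 in control brain. Their part in the differences between libraries was not tested. Apoptosis and stress genes were higher for 5 of 6, 3 of 7 and 2 of 6 members, led by Daxx, itself interferon-induced. Alternative activation genes were 1 higher and 1 lower, 3 of 4 higher, and none apart. Border macrophage genes had 5 of 10 members with a UMI.

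The contrast with Macro_2 could be followed in 7 libraries that held at least 10 cells of both clusters. Of 1336 genes over the minimum in all 7, 55 (4.12%) were at least 2-fold higher in Macro_1 in every library and 0 (0%) at least 2-fold lower in every library. Of the 55, 38 stood on an interferon or MHC class I list, and 24 of the 28 effectors over the minimum were among them. For 8 of the 55, Macro_2 had no UMI in at least 1 library, so their ratios there rest on the added count. The log2 ratio of Ifit3 ran from 3.74 in control brain to 7.16 in brain 24 h replicate 1, and that of Isg15 from 3.55 to 4.40. Fcgr1 lay between 1.97 and 2.78, and its level in Macro_1 between 549 and 1099 CPM over all 8 libraries, against 117 to 189 in Macro_2. Ccl12 was also among the 55, with ratios from 1.36 in control pia to 5.26 in brain 24 h replicate 1. The median log2 ratio of the interferon effectors was 2.25 in control brain, 3.29 in brain 24 h replicate 1, 2.54 in brain 72 h, 2.61 and 2.96 in control pia and pia 24 h, and 2.64 and 3.46 in control dura and dura 24 h, on the 40 genes common to the gene lists. The medians of all genes in these libraries lay between 0.18 and 0.67. All but brain 72 h rest on 13 to 28 Macro_1 cells.

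Levels of other genes in Macro_1 varied between tissues. Tmem119, a microglial surface protein, stood at 2349 CPM in Macro_1 of control brain, 378 and 178 in the brain 24 h libraries and 134 in brain 72 h, and at 118, 63.1, 16.9 and 24.1 in control pia, pia 24 h, control dura and dura 24 h. In Micro_1, the main microglia cluster, it stood at 4388 CPM in control brain, 4334 and 1443 in the brain 24 h libraries and 1017 in brain 72 h. P2ry12, the purinergic receptor of resting microglia, stood at 3271 CPM in control brain Macro_1, 459 in brain 24 h replicate 1 and between 58.9 and 152 in the other 6, against 8750 and 4494 in Micro_1 of the first 2. P2ry12 in Micro_1 was at 559 CPM in brain 24 h replicate 2 and 631 in brain 72 h. Both genes were thus highest in Macro_1 of control brain and below Micro_1 there. Both were also lower in Micro_1 of brain 72 h than of control brain, so a lower level was not particular to Macro_1. Brain 24 h replicate 2 and brain 72 h had the shorter gene list, so these levels also cross a technical difference. Cx3cr1, the fractalkine receptor of microglia and monocytes, lay between 525 and 1705 CPM in brain Macro_1 and between 33.8 and 210 in meningeal Macro_1. Sparc, a matrix protein that microglia express, stood at 1751 CPM in control brain, between 267 and 373 in the other brain libraries and at 63.1 and 24.1 in pia 24 h and dura 24 h, and had no UMI in control pia and control dura.
At least 1 UMI of Tmem119, P2ry12 or Sparc occurred in 12 of 13 Macro_1 cells in control brain (92.3%), where 52.9% of lymphoid cells also had one (median depth 1740 and 1238.5 UMIs). In brain 24 h replicate 1 it was 81.2% against 20.8% of lymphoid cells, in replicate 2 66.7% against 19.5% and in brain 72 h 39.7% against 17.5%. Lymphoid cells were shallower, and after thinning to 1000 UMIs the counts were 11 of 12 Macro_1 and 26 of 54 lymphoid cells in control brain, 9 of 15 and 7 of 55 in brain 24 h replicate 1, 2 of 8 and 46 of 375 in replicate 2, and 15 of 71 and 57 of 427 in brain 72 h. Meningeal Macro_1 cells had such UMIs too, in 33.3% of cells in control pia against 4.27% of lymphoid cells, 10.7% against 1.54% in pia 24 h, 31.8% against 1% in control dura and 31.2% against 0.298% in dura 24 h. After thinning these were 3 of 18 and 7 of 201, 3 of 20 and 5 of 339, 2 of 21 and 8 of 583, and 4 of 15 and 1 of 809, and the brain 72 h share lay within the range of these. The lymphoid shares are given for comparison, as lymphoid cells should lack these genes, and the source of their UMIs was not measured. These 3 genes were chosen after the values were seen.

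Monocyte genes varied among the brain libraries. Ly6c2 stood at 1032 CPM in brain 72 h, at 149 in brain 24 h replicate 2 and at 322 in control brain, where all 7 UMIs came from 1 cell. After thinning, 40.8% of brain 72 h Macro_1 cells had a Ly6c2 UMI, against 25.3% of lymphoid cells, some of which express it, and 0 of 131 Micro_1 cells, which allows up to 2.29% (median depths before thinning 2118, 1477 and 2184 UMIs). The level of Ly6c2 was 21 CPM in pia 24 h, and no UMI was found in the remaining 4. Chil3, a chitinase-like protein of monocytes, stood at 915 CPM in brain 72 h and 624 in brain 24 h replicate 2 and at 46.1 or less elsewhere. The 4 monocyte markers (Ly6c2, Ccr2, Plac8 and Chil3) summed to 3649 CPM in brain 72 h, 2822 in brain 24 h replicate 2, 1106 in control brain, 432 and 463 in control pia and pia 24 h, 48 in dura 24 h, 27 in brain 24 h replicate 1 and 17 in control dura. Plac8 was the most abundant of them outside the dura, level with Ccr2 in control pia, and Ccr2 in the dura libraries. Over the whole list of 14 monocyte genes the tissues lay closer. The brain sums were 8604 CPM in brain 72 h, 5970 and 135 in brain 24 h replicates 2 and 1, and 2119 in control brain. The sums in control and 24 h libraries were 1511 and 2292 in pia and 1216 and 1807 in dura. F13a1 led in both pia libraries and dura 24 h, and Ly6a in control dura. The 2 brain 24 h libraries therefore disagreed. Tmem119 and P2ry12 were lower in replicate 2 than in replicate 1 and the monocyte markers higher, with 9 cells in replicate 2. Replicate 2 had the gene list of brain 72 h and not that of replicate 1. It shared 13 barcodes with brain 72 h and 0 with replicate 1. A difference between the 2 brain 24 h libraries cannot be told apart from this technical one.
The same 2 libraries were high in Spp1, at 45198 CPM in replicate 1 (14 of 16 cells, 828 of 1674 UMIs from 1 cell) and 8317 in replicate 2 (257 of 280 UMIs from 1 cell). Spp1 had no UMI in control brain and dura 24 h, and stood at 729 CPM in brain 72 h and 820 in pia 24 h.

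Border macrophage genes were higher in sum in Macro_1 of the meninges than of the brain. Pf4, a platelet-type chemokine that border macrophages make, stood at 510 CPM in control pia, 1766 in pia 24 h, 1521 in control dura and 964 in dura 24 h, at 59.4 in brain 24 h replicate 2 and 35 in brain 72 h, and had no UMI in the other 2 brain libraries. The meningeal and brain groups did not overlap for Pf4. In Macro_2 of the same meningeal libraries Pf4 stood at 815, 406, 1424 and 820 CPM. Lyve1, the hyaluronan receptor of perivascular macrophages, lay between 33.8 and 147 CPM in the 4 meningeal libraries and had no UMI in Macro_1 of the brain. All 4 border markers (Pf4, Lyve1, Mrc1 and Cbr2) had UMIs in the 4 meningeal libraries, with sums of 922 CPM in control pia, 2502 in pia 24 h, 2011 in control dura and 1397 in dura 24 h. The sums in the brain libraries were 0 in control brain and brain 24 h replicate 1, 238 in replicate 2 and 41 in brain 72 h. Over the whole list of 10 border macrophage genes, the brain sums were 92, 81, 535 and 402 CPM in the same order, with Stab1 the most abundant in brain 72 h, and the meningeal sums ran from 1609 in control pia to 4394 in pia 24 h. Other clusters divided too. The list sums ran from 214 to 1369 CPM in brain CAM_1 and from 6013 to 8987 in meningeal CAM_1. In Macro_2 they ran from 171 to 1014 and from 1558 to 3014. The division in these genes was thus not particular to Macro_1, though the brain and meningeal sums of Micro_1 overlapped. A UMI of Pf4, Cbr2 or F13a1 (the last is also on the monocyte list) occurred in 24.7% of brain 72 h Macro_1 cells against 1.64% of lymphoid cells, and after thinning in 8 of 71 and 2 of 427. In the meninges it was 44.4% of Macro_1 against 15.3% of lymphoid cells in control pia, 78.6% against 7.86% in pia 24 h, 77.3% against 8.55% in control dura and 75% against 6.14% in dura 24 h. After thinning these were 6 of 18 and 28 of 201, 13 of 20 and 21 of 339, 14 of 21 and 44 of 583, and 10 of 15 and 58 of 809.
MHC class II genes showed the same division. H2-Aa lay between 2691 and 9145 CPM in meningeal Macro_1 and between 54 and 1143 in brain Macro_1. Cd74 lay between 23716 and 58754 CPM in the meninges and between 1593 and 3059 in the brain. This division was not particular to Macro_1. The summed class II list ran from 699 to 2026 CPM in brain CAM_1 and from 5736 to 18848 in meningeal CAM_1. In Micro_1 it ran from 750 to 1361 and from 3124 to 15240. Macro_2 did not divide, with 140292 CPM in control brain and 116309 in pia 24 h. In Macro_1, Ccl12 followed another order, as it was lowest in brain 72 h at 536 CPM and lay between 5168 and 25704 in the other 7. Apoe was lowest in control brain (1336 CPM) and brain 24 h replicate 1 (540) and lay between 15623 and 47815 in the other 6, and Lyz2, lysozyme, was lowest in brain 24 h replicate 1 at 594 CPM.
Some counts outside these groups came from single cells. In control pia all 12 UMIs of Trdc, a gamma delta T cell receptor gene, were in 1 Macro_1 cell, and the lymphoid genes summed to 412 CPM there with 6 of 11 detected. Ccr7, of migrating dendritic cells, had 16 UMIs in 1 cell of pia 24 h and 25 in 1 cell of control dura. In control dura 19 of 21 S100a8 UMIs were in 1 cell.

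**Figure D4:**
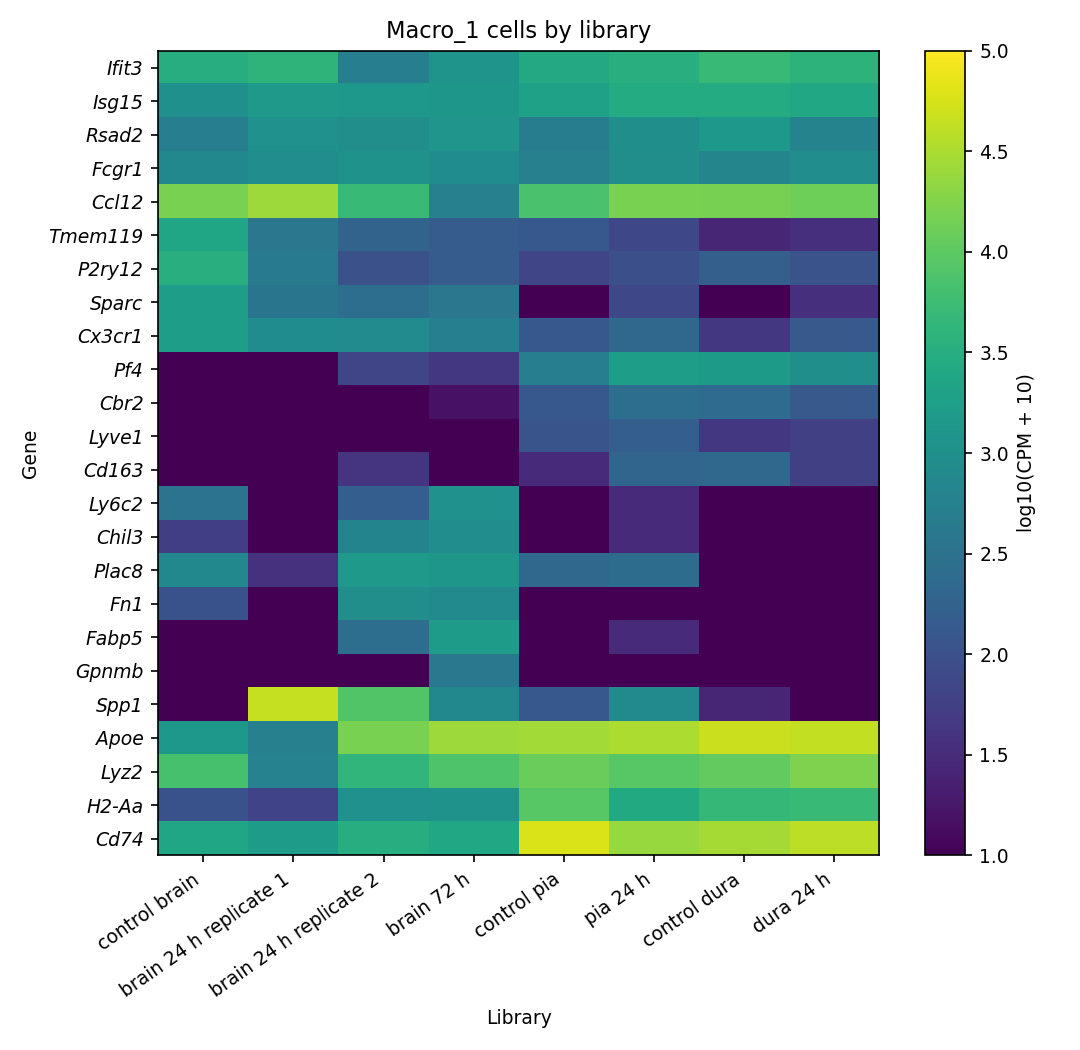
Levels of 24 genes (vertical axis) in the summed Macro_1 cells of each library (horizontal axis), as log10(CPM + 10) on the colour scale, so that a gene without a UMI is at 1. Ifit3, Isg15, Rsad2 and Fcgr1 are present throughout, Tmem119 and P2ry12 are highest in control brain, Pf4 and Cbr2 in the meninges, and Fabp5 and Gpnmb in brain 72 h.

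Macro_1 made up 1.21% of annotated cells in brain 72 h (0.947 to 1.52), 0.303% in control brain (0.161 to 0.517) and 0.349% and 0.26% in the brain 24 h libraries. The share was 0.641% in control pia (0.38 to 1.01) and 0.714% in pia 24 h (0.475 to 1.03), and 0.783% in control dura (0.491 to 1.18) and 0.354% in dura 24 h (0.203 to 0.574). The brain 72 h interval lay above those of the other 3 brain libraries, whereas the intervals within pia and within dura overlapped. With 1 library a group in pia, in dura and at 72 h, a difference there could not be told apart from one between libraries. The shares were not tested. Shares also move with the other cells in a sort, and in the control and 24 h brain libraries most of these were microglia. Over cells outside the microglia clusters the order in the brain turned, with Macro_1 at 2.3% in control brain, 1.01% and 0.612% in the brain 24 h libraries and 1.45% in brain 72 h.

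Whether Macro_1 cells themselves differed at 24 h after MCAO from controls was tested in the meninges, over the UMI sums of 4 libraries with tissue as a covariate. This left 1 residual degree of freedom. More than 1 kit version was used in the study. Any difference in kit between dura 24 h and the other 3 libraries cannot be told apart from time. Dura 24 h had the same gene list of 32285 entries as the other 3. It shared 12 barcodes with control pia, 30 with pia 24 h and 18 with control dura. With brain 24 h replicate 2 and brain 72 h it shared 0 and 1. In edgeR's quasi-likelihood test 0 of 820 genes (0%) passed an adjusted p of 0.05 (Benjamini-Hochberg), 63 had an unadjusted p under 0.05, and the smallest adjusted p was 0.173. DESeq2 also called 0 genes, with 15 at an unadjusted p under 0.05. Other settings did make calls, with 4 genes higher and 10 lower without a filter on low counts and up to 5 higher and 2 lower when 1 library was left out. With the control and 24 h brain libraries added, 7 in all, edgeR called 0 of 867 genes, with 32 at an unadjusted p under 0.05 and a smallest adjusted p of 0.993, in a fit chosen after seeing the data. The absence of calls does not show that the cells were alike. The values with the smallest p are given as values only, and were picked for it. Cxcl9 stood at 863 CPM in control pia, 21 in pia 24 h, 422 in control dura and 96.4 in dura 24 h (log2 difference -3.45, adjusted p = 0.173). Ccl6 stood at 177, 883, 591 and 2000 CPM in the same order (1.96, adjusted p = 0.173). AW112010 stood at 1120, 294, 1790 and 434 CPM (adjusted p = 0.173). Ifit3, in contrast, stood at 2571 CPM in control pia, 3175 in pia 24 h, 5102 in control dura and 3903 in dura 24 h, and Isg15 at 1923, 2859, 2872 and 2530, so that both were higher at 24 h in pia and lower in dura.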

How the data were processed

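CD45+ leukocytes were sorted and sequenced with droplet-based 3′ chemistry. Per the submitters' processing notes and the study's methods, the authors aligned reads to mm10 with Cell Ranger 6.0 and deposited raw UMI counts per gene and barcode, and the authors' annotation gives each kept barcode a cluster after filters on genes and mitochondrial reads, doublet removal, normalisation and integration of the libraries. Of 36854 barcodes, 32457 were annotated and used. UMI counts were summed per cluster and library. Levels are CPM on the gene list of each library, and Ensembl identifiers were used to match genes (30406 were shared). Cells were thinned by drawing 1000 UMIs at random with a fixed seed. The Macro_1 sums of 4 meningeal libraries were tested with edgeR 4.0.16 (TMM scaling, filterByExpr, two-sided), with DESeq2 1.42.0 as an alternative, and the procedure was tested on simulated data. The other values came from Python 3.11.15 (scipy 1.17.1, numpy 2.4.6), with plots drawn in matplotlib 3.10.9. Members, gene lists and genes shown were chosen with earlier results of these data known. The genes named include the 8 with the highest and 8 with the lowest ratio in each brain 72 h comparison, at most 8 of each list by level in Macro_1 and the proposed markers. Any gene called at 24 h with a library left out was also named. Genes called without a filter on low counts were counted and not listed. Further members of the lists and single genes were named after their values were seen. Nothing says that libraries of a group came from separate animals. The test over 4 meningeal libraries had 1 library per tissue and condition and 1 residual degree of freedom. Its p-values rest on how far the 24 h difference varied between pia and dura, and measure no spread between libraries of a group. Mx2 and Cxcl11 were not matched in the files, and Mx1 was matched only in the shorter gene list. In brain 72 h, 12 of 13 nucleic acid sensors and 9 of 10 apoptosis and stress genes were matched.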

Additional observations from a re-analysis of the deposited data

Results flagged for a closer look

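The share of Macro_1 among all annotated cells moved in opposite directions at 24 h after MCAO in the 2 meningeal tissues. The difference from control was 0.073 percentage points in pia and -0.429 in dura. The direction in pia turned among cells with at least 1000 UMIs. There the share was lower at 24 h in both tissues, at 0.621% against 0.771% in pia and 0.541% against 0.981% in dura. The percent of Macro_1 UMIs from the 40 interferon effectors was higher at 24 h in pia and lower in dura. The difference from control was 0.56 percentage points in pia, -0.43 in dura, -0.03 in brain replicate 1 and -0.24 in brain replicate 2. For brain replicate 1 the direction turned after thinning (2.27% against 1.97% in control brain) and without Ifitm3 (2.02% against 1.91%). These differences between tissues were not tested, since there was 1 library a group in pia and dura.

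Barcodes that the annotation left out also carried effector UMIs. The percent was 0.198 in brain 24 h replicate 1, 0.239 in replicate 2 and 0.612 in brain 72 h, against 0.151 in control brain, and 0.712 in pia 24 h against 0.59 in control pia. In dura it was the other way, with 0.394 at 24 h against 0.577 in control dura. In brain 72 h, 2 of 1347 such barcodes reached the median of Macro_1 cells.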

How the results depend on the processing

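No alternative reversed the sign of the effector medians. The median log2 ratio of the effectors lay between 3.36 and 3.59 against SAMC, 2.4 and 2.9 against Macro_2 and 2.38 and 2.58 against Granulo_1 over the alternatives run. Counts of genes in brain 72 h moved with the minimum. At 20 CPM they were 885 higher and 364 lower against SAMC, 919 and 377 against Macro_2, and 642 and 344 against Granulo_1, and at 100 CPM 241 and 60, 262 and 84, and 172 and 60. With TMM scaling the lower genes numbered 241 against SAMC and 280 against Macro_2, and the monocyte genes lower than in Granulo_1 went from 5 to 8. Genes higher than in Macro_2 went from 11 to 8 on the mature macrophage list and from 8 to 6 on the lipid-handling and SAMC list. Against SAMC, the lipid-handling and SAMC genes that were lower went from 8 to 10. Monocyte genes higher than in SAMC went from 7 to 5. Thinned cells gave 491 genes higher than in Granulo_1. Outside the microglia clusters the share of Macro_1 was 2.3% in control brain, 1.01% and 0.612% in the brain 24 h libraries and 1.45% in brain 72 h, so that control brain stood above brain 72 h, the reverse of their order over all annotated cells. Among cells with at least 1000 UMIs the share was 0.423% in brain 24 h replicate 2 and 0.541% in dura 24 h. In that setting pia 24 h, at 0.621%, stood below control pia, at 0.771%. The percent of UMIs from the effectors became 1.97 in control brain, 1.76 in brain 24 h replicate 2 and 2.84 in brain 72 h after thinning. As a median over cells it was 1.92 and 1.77 in the brain 24 h libraries, 3.3 in pia 24 h, 3.98 in control dura and 3.49 in dura 24 h. Without Ifitm3 it was 1.91 in control brain, 1.63 in brain 24 h replicate 2, 2.22 in brain 72 h, 2.14 in control pia, 2.59 in pia 24 h, 3.26 in control dura and 2.74 in dura 24 h. The cause of these shifts was not tested.

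At 24 h in the meninges, edgeR without a filter on low counts tested 8896 genes and called 4 higher and 10 lower. Leaving out 1 library at a time, which also removed the tissue term and left 1 group with a lone library assumed to vary like the other, gave 0 to 5 genes higher and 1 to 2 lower. Lyz1 was lower without control pia and Ccl5 without pia 24 h. Without control dura, Ccl6, Cxcl2, Fcgrt and Gpx3 were higher and Cxcl9 lower, and without dura 24 h, Ccl24, Ctsl, Saa3, Slc7a11 and Spp1 were higher and Cxcl9 and Rgs1 lower. With the brain libraries added, an alternative chosen after seeing the data, 0 genes were called. No paired analysis was possible because the replicate numbers name no shared animal or batch, and the pairing within tissue is the tissue term of the model. Most values outside brain 72 h rest on 9 to 28 cells, so genes at a few UMIs were not measurable there.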
